A study of Mus musculus with 2 samples.

Results

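Mir132 and Mir212 are 2 microRNA (miRNA) genes that lie side by side on mouse chromosome 11 and are known for their response to adrenocorticotropic hormone (ACTH) and cyclic AMP (cAMP). They were taken by gene symbol, as the 2 of 2202 annotated miRNA genes that carry these names in GENCODE M21. The series measured miRNAs by sequencing of small RNA from adrenal glands of female mice aged 4 days, of the strain B6CASTF1/J, a first-generation hybrid of C57BL/6J and CAST/EiJ. Its 1 group has 2 libraries, which are called replicates 1 and 2 after the biological replicate numbers of the labels. The labels name a different female for each, under a shared donor identifier. The labels name no hormone or cAMP treatment, so the data give the levels of the pair in the neonatal gland and not a response to ACTH.

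A miRNA is cut from a hairpin in a longer transcript and guides the Argonaute protein to messenger RNAs that pair with its seed, bases 2 to 8 from the 5′ end. In the adrenal cortex, ACTH acts through its receptor to raise cAMP, which activates protein kinase A and the transcription factor CREB and drives steroid synthesis. Transcription of the Mir132 and Mir212 locus is a known target of CREB, first described in neurons, and both miRNAs have been reported to rise in rat adrenal glands after ACTH. A known target of miR-132 is the messenger RNA of the Ras regulator Rasa1.

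The mature sequences show what the pair shares. Each is written 5′ to 3′ with the seed in capitals, from RefSeq on GRCm38.p6, the same build as mm10.
miR-132-3p: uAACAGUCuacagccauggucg
miR-212-3p: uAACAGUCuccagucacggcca
miR-132-5p: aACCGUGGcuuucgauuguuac
miR-212-5p: aCCUUGGCucuagacugcuuacu
The 3p arms carried the same seed, AACAGUC, and no other of the 1738 mature mouse miRNAs in the table had it. The 5p seeds, ACCGUGG and CCUUGGC, were each found in 1 mature miRNA of the table. Over their 22 bases the 3p arms were identical at 17 positions (77.3%), with no difference before position 10. Counted from 1 at the 5′ end, with the miR-132-3p base first, the 5 differences were A10C, C14U, U17C, U20C and G22A.

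The hairpins differ in length and GC content. They are shown with the 3p arm in capitals, since the reads of a gene were counted over the whole hairpin and the deposited tables do not tell its arms apart.
Mir132 hairpin: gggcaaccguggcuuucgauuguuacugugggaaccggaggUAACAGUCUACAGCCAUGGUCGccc
Mir212 hairpin: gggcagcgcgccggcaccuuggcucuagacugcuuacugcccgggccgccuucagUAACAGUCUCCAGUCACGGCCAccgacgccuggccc
The Mir132 hairpin has 66 bases and a GC content of 57.6%, and the Mir212 hairpin has 91 bases and a GC content of 69.2%. In each library 10 or more reads were asked of a gene to call it detected. Among the 377 detected genes, where the median GC content was 50.0%, 13 had a higher GC content than Mir212 and 82 a higher one than Mir132. The folding energy predicted by RNAfold was -37.2 kcal/mol for Mir132 and -41.5 kcal/mol for Mir212, against a median of -36.6 kcal/mol. Per base, the Mir132 hairpin was the more stable, at -0.564 kcal/mol against -0.456 kcal/mol for Mir212.

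The longest run of bases shared by the 2 hairpins had 10 bases. The longest run shared with any other annotated miRNA hairpin, on either strand, had 11 bases for Mir132 and 12 for Mir212. A run of 18 bases shared with a hairpin elsewhere was held by 96 of the 377 detected genes and by neither Mir132 nor Mir212. These tables leave out reads with several mapping places, and by this measure the pair is not among the genes that lose reads to near-identical hairpins. Each of the 4 mature sequences occurred in 1 annotated hairpin.

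In mm10, Mir212 lies on the plus strand of chromosome 11 from 75173388 to 75173478 and Mir132 from 75173682 to 75173747, with 203 bases between the hairpins. Both lie in intron 1 of the noncoding host gene 1700016P03Rik (75172560 to 75177633, plus strand, 3 exons), outside its exons. Mir212 begins 828 bases and Mir132 begins 1122 bases after the annotated start of the host gene. The map of the locus shows both hairpins before exon 2.

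**Figure D1:**
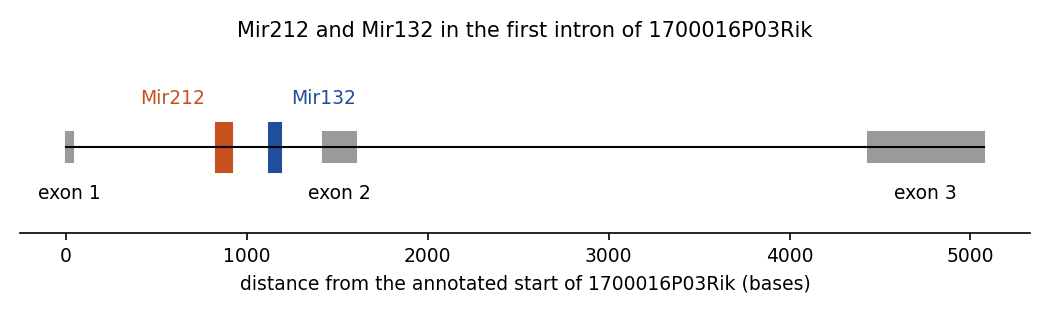
Map of the host gene 1700016P03Rik to scale, with distance from its annotated start in bases on the x axis, exons in grey, Mir212 in orange and Mir132 in blue. Both hairpins sit in the first intron, 203 bases apart.

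The libraries held 4960537 and 4506482 reads on miRNA genes (replicates 1 and 2). They were not copies of each other, with a chi-square of 566135 on 376 degrees of freedom over the detected genes. Levels are given as CPM, the count of a gene scaled to a common total of miRNA reads. Their 95% Wilson intervals cover the counting error of reads only. Amplified reads with no molecular identifier cannot be taken as separate molecules, so these intervals and the tests on reads below may understate the error. Marker lists of other tissues differed in level between the libraries: the 7 epithelial genes, all above 0 reads, took 0.471% of the reads in replicate 1 and 0.116% in replicate 2, and the 10 striated muscle genes, of which 3 were detected, took 0.125% and 0.869%. Of the epithelial genes, 6 were lower in replicate 2, while Mir203 was higher there, with 2210 and 4356 reads, and made up most of the list's 5248 reads in that library. The muscle share was almost all Mir206, with 6146 of 6221 reads in replicate 1 and 38876 of 39153 in replicate 2. All 3 detected muscle genes were called higher in replicate 2 by the exact binomial test described below, where 35.5% of all detected genes were. Beside Mir206 these were Mir499, with 23 and 179 reads, and Mir208b, with 19 and 56 reads. Those not detected went both ways, as with Mir133b (9 and 29 reads) and Mir1b (18 and 4 reads). The hairpins of 6 of the 10 muscle genes share runs with others, so low counts among them set no limit. Genes of steroid synthesis are not in a table of miRNAs, so the tissue label could not be checked against them. In whole tissue, fewer cells of a type and less RNA per cell cannot be told apart.

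Mir132 was a moderately abundant miRNA of the neonatal adrenal gland, at nearly the same level in both libraries when scaled to all miRNA reads. It had 3035 reads in replicate 1 and 2717 reads in replicate 2. These came to 612 CPM (interval 590.5 to 634.0) and 603 CPM (interval 580.7 to 626.0). The mean level was 607 CPM ± 6.31 (SD, n = 2), which ranked 112 of the 377 detected genes and was 4.05 times their median level of 149.9 CPM. The intervals of the libraries overlapped over most of their length.

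Mir212 was detected at a far lower level. It had 188 reads in replicate 1 and 141 reads in replicate 2, or 37.9 CPM (interval 32.9 to 43.7) and 31.3 CPM (interval 26.5 to 36.9). The mean of 34.6 CPM ± 4.67 (SD, n = 2) ranked 256 of 377 and was 0.231 times the median detected level. The replicate 1 value was the higher of the pair of libraries, and the intervals overlapped. With fewer than 200 reads in each library, counting error alone gives intervals of this width.

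No read of either gene lay on the opposite strand. For Mir132 a count of 0 allows an opposite-strand share of up to 0.0988% of its reads in replicate 1 and 0.110% in replicate 2, and for Mir212 up to 1.60% and 2.13%.

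**Figure D2:**
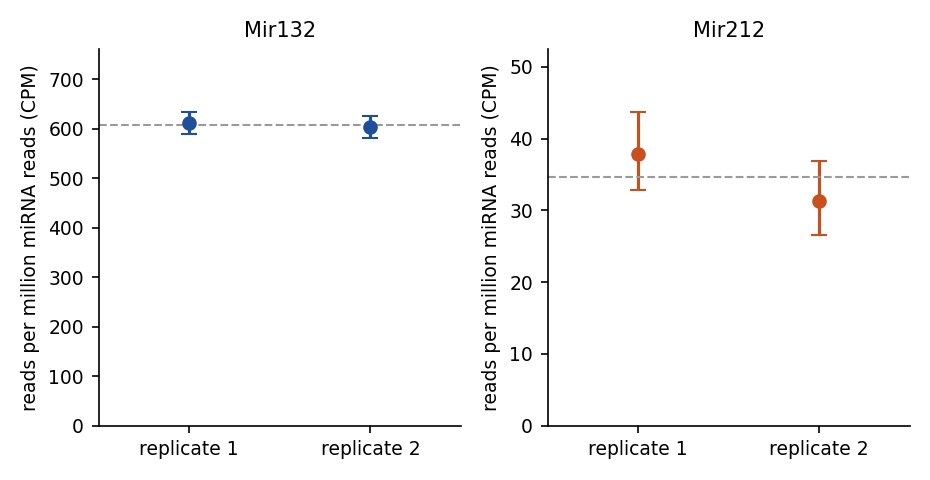
Level of Mir132 (left) and Mir212 (right) in each library, in CPM on axes that start at 0 and differ in range. Points are libraries, bars are 95% Wilson intervals and the dashed line is the mean of the 2 libraries, 607 CPM for Mir132 and 34.6 CPM for Mir212.

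Reads of Mir132 outnumbered those of its neighbour by more than 10 to 1 in both libraries. The ratio of Mir132 to Mir212 reads was 16.1 in replicate 1 (95% exact interval 13.9 to 18.8) and 19.3 in replicate 2 (16.3 to 23.0), with a mean of 17.7 ± 2.21 (SD, n = 2). This ratio needs no scaling between libraries. Reads were counted over the whole hairpin, so the ratio is not one of the 3p arms alone. Per base of the hairpin, Mir132 had 46.0 reads in replicate 1 and 41.2 in replicate 2, and Mir212 had 2.07 and 1.55. The mean ratio per base was 24.4 ± 3.05 (SD, n = 2), which differs from 17.7 only through the hairpin lengths of 66 and 91 bases. The mature arms of the pair have 22 or 23 bases, so the per-base ratio is not a correction for the length of the mature miRNAs.

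Together the genes had 650 and 634 CPM in replicates 1 and 2. Mir132 made up 94.2% of these reads in replicate 1 (95% exact interval 93.30 to 94.95) and 95.1% in replicate 2 (94.2 to 95.8). The odds of a Mir132 read in replicate 2 were 1.19 times those in replicate 1 (95% interval 0.948 to 1.51), and the difference did not pass a two-sided Fisher's exact test on the reads (p = 0.125). That test compares these libraries with counting error alone. The interval leaves room for a ratio of the pair that is up to 1.51 times higher in replicate 2.

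Between the libraries, each gene was compared as replicate 2 over replicate 1 on reads scaled by the trimmed mean of M-values (TMM, a factor that sets most genes level between libraries), with an exact two-sided binomial test adjusted by Benjamini-Hochberg over the 377 detected genes. The test takes counting error as the only error, so it compares 2 libraries and not conditions. By this measure Mir132 was 1.08-fold higher in replicate 2 (log2 ratio 0.11, 95% exact interval 0.03 to 0.19, adjusted p = 0.00659). Mir212 had a log2 ratio of -0.15 (interval -0.47 to 0.18, adjusted p = 0.447) and was not called. Of the pair, 1 gene was thus called, where 68.2% of all detected genes were called, and 35.5% were called higher in replicate 2.

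The Mir132 call rested on how the libraries were scaled. TMM factors taken from the detected genes alone, an alternative chosen after seeing the data, gave a log2 ratio of 0.030 (adjusted p = 0.513), DESeq2 size factors gave 0.067 (adjusted p = 0.115), and scaling by total miRNA reads turned it to -0.021 (adjusted p = 0.656). Under these 3 scalings neither gene of the pair was called, where 67.1%, 68.4% and 67.9% of the detected genes were. Scaling by total reads shifted all log2 ratios by -0.13, which is larger than the Mir132 ratio itself. With the dispersion of the pair of libraries as the error, edgeR's exact test gave an unadjusted p of 0.904 for Mir132 and 0.885 for Mir212, and it called 1.86% of the detected genes. That dispersion was estimated from the differences between these same 2 libraries, so the test cannot decide on differences as small as those of the pair. The log2 ratio of Mir212 was negative under all 4 scalings, from -0.28 to -0.15, and its interval included 0 under each.

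**Figure D3:**
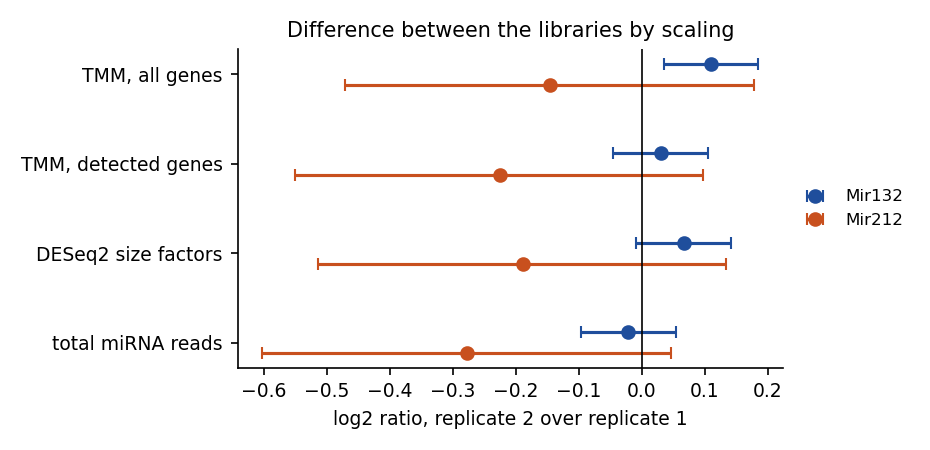
Log2 ratio of replicate 2 over replicate 1 (x axis) for Mir132 in blue and Mir212 in orange under 4 ways of scaling the libraries (rows), with 95% exact intervals as bars. Mir132 moves from 0.11 to -0.021 across the rows, and the interval of Mir212 includes 0 in each.

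The size of these differences was small beside those of other genes. The absolute log2 ratio was smaller than that of Mir132 at 55 of the 377 detected genes and smaller than that of Mir212 at 68, and the median absolute value was 0.45. The log2 ratio had an SD of 0.97 across these genes.

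Most other miRNAs known to respond to ACTH or cAMP were lower in replicate 2, by amounts that ran from that of Mir212 to far larger ones. The lists came from general knowledge of the field: miRNAs raised by ACTH in rat adrenal glands (Mir182, Mir183 and Mir96 beside the pair), miRNAs lowered there (Mir214, Mir503, Mir27a and the 8 gene copies of Mir466b), and miRNAs lowered by cAMP in steroid-producing cells (Mir125a and Mir455). Beside Mir132 and Mir212 they held 16 genes, of which 8 were detected. All 8 copies of Mir466b had 0 reads, and since their hairpins share runs with each other this sets no limit to the level of the miRNA.

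By the exact binomial test, 7 of the 8 detected genes were called higher in replicate 1, and Mir455 alone was called higher in replicate 2. The counts were the same under all 4 scalings. Over all detected genes 32.6% were called higher in replicate 1, and 35.3%, 34.2% and 38.2% under the scalings by TMM over detected genes, by DESeq2 and by total reads. The median log2 ratio of the 8 was -0.98, beside 0.04 over all detected genes. With edgeR's exact test 0 of the 8 passed, and 1, Mir214, had an unadjusted p under 0.05.

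The genes raised by ACTH beside the pair belong to a single cluster on chromosome 6. Mir182 had 324 CPM in the first library and 109 CPM in the second (log2 ratio -1.44, interval -1.58 to -1.29). Mir183, its partner in the cluster, had 219 and 105 CPM (log2 ratio -0.93, interval -1.09 to -0.77). Mir96, the third of that cluster, had 12.7 and 3.77 CPM, from 63 and 17 reads (log2 ratio -1.62, interval -2.49 to -0.83). All 3 were lower in replicate 2, whereas the intervals of the log2 ratios of Mir132 and Mir212 lay above each of these 3 intervals.

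Among the genes reported to fall with ACTH, Mir214, a miRNA also known from mesenchymal cells, stood at 3641 CPM in replicate 1 against 542 CPM in replicate 2 (log2 ratio -2.62). Mir503, which is transcribed with Mir322 on the X chromosome, had 972 and 605 CPM (log2 ratio -0.55), and Mir27a had 469 and 385 CPM (log2 ratio -0.15). Mir125a, known to act on the lipoprotein receptor Scarb1, was the most abundant of the 8, at 11436 CPM in replicate 1 against 5124 CPM in replicate 2. Mir455, which acts on the same receptor, was the exception in direction, with 1000.5 and 1114 CPM (log2 ratio 0.29). Genes reported to rise and genes reported to fall with ACTH were thus both found among those higher in replicate 1.

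**Figure D4:**
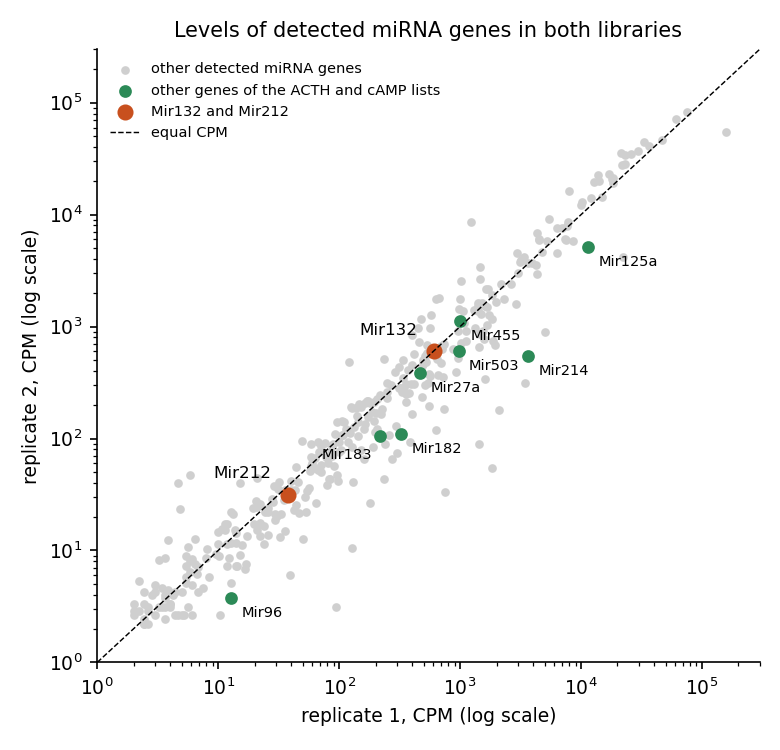
Levels of the 377 detected miRNA genes in replicate 1 (x axis) and replicate 2 (y axis), in CPM on log scales, with Mir132 and Mir212 in orange and the other 8 detected genes of the ACTH and cAMP lists in green. Mir132 and Mir212 lie near the dashed line of equal CPM, and Mir182, Mir183, Mir96, Mir214 and Mir125a lie below it.

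Since both miRNAs are known from neurons and the adrenal medulla is a neuroendocrine tissue, markers of those cells were read beside the pair. Of 21 neuronal and neuroendocrine genes, 15 were detected and 3 had 0 reads in both libraries, and the list took 4.30% and 4.84% of the reads. Of the 15, 5 were called higher in replicate 1 and 5 in replicate 2, shares near the 32.6% and 35.5% of all detected genes. Mir375, a miRNA of endocrine cells, made up most of the list with 38702 CPM ± 3285 (SD, n = 2). The neuronal Mir124a genes were at or near 0, with 1 read of Mir124a-1 in replicate 2 and none of Mir124a-2 or Mir124a-3, and Mir9-1 had 6 and 4 reads. The hairpins of 16 of the 21 genes share runs with others, so low counts among them set no limit. Mir137, at 712 CPM ± 24.7 (SD, n = 2) and with no call between the libraries, was the neuronal marker nearest in level to Mir132.

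Markers of further cell types differed between the libraries, and members of 1 list did not all move the same way. By the exact binomial test 68.2% of all detected genes were called, 32.6% higher in replicate 1 and 35.5% higher in replicate 2. The 4 endothelial genes took 17.1% and 7.51% of the reads, most of it from Mir126a, an endothelial miRNA. Mir126a and Mir222 were called higher in replicate 1, and Mir139 (14194 and 19981 CPM, log2 ratio 0.62) and Mir221 (log2 ratio 0.45) were called higher in replicate 2. The 3 erythroid genes took 0.106% and 0.0287%. Of these, Mir451a and Mir144 were called higher in replicate 1, and Mir486, with 101 and 125 reads, was called higher in replicate 2 (log2 ratio 0.58). The 5 leukocyte genes, of which Mir142b was at 0 reads, took 0.126% and 0.155%. Of these, Mir142, Mir223 and Mir150 were called higher in replicate 2, and Mir155, with 517 and 354 reads, was called higher in replicate 1. Of the 6 kidney-enriched genes, 5 were detected, and the list took 0.0429% and 0.0189%. Of the 5, 3 were called higher in replicate 1 and 2 were not called, where 32.6% of all detected genes were called higher in replicate 1. The part of these cells in the levels of Mir132 and Mir212 was not tested. With Mir126a left out of the total, the level of Mir132 was 726 and 638 CPM and that of Mir212 44.9 and 33.1 CPM in replicates 1 and 2.

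The genes most like the pair in level were found by Euclidean distance of log2(CPM + 1) over the 2 libraries, with 5 genes for each. Nearest to Mir132 were Mir598, Mir485, Mir708, Mir125b-1 and Mir467d, at distances of 0.139 to 0.241 and with values from 531 to 708 CPM. Nearest to Mir212 were Mir331, Mir302b, Mir6236, Mir190a and Mir135b, at distances of 0.148 to 0.322 and with values from 28.2 to 43.5 CPM. Shared runs occur in the hairpins of Mir708, Mir125b-1, Mir467d, Mir302b and Mir190a, whose levels are of uniquely mapped reads alone. With 2 libraries such a distance describes levels and not shared behaviour.

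Within 500 kb of the pair, GENCODE M21 lists 4 other miRNA genes. Mir22, a broadly expressed miRNA on the same strand and 290.3 kb downstream of the start of Mir212, stood at 22261 CPM in replicate 1 against 4200 CPM in replicate 2 (log2 ratio -2.28, interval -2.30 to -2.25). It was thus 4.84-fold higher in replicate 1, where Mir132 was nearly level. Mir6926 had 3 reads and 1 read, and Gm47300 and Mir3971 had 0 reads in both libraries.

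Unequal counts of neighbouring hairpins were common in these libraries. With a rule chosen after the values of the pair were known, consecutive annotated hairpins on 1 strand with at most 1000 bases between them and with both genes detected were taken, which gave 78 pairs. The median ratio of the larger to the smaller count was 7.96, and 24 of the 78 pairs had a larger ratio than Mir132 over Mir212, which was 17.6 as a geometric mean of the libraries. Among the 45 pairs without a shared run in either hairpin the median was 4.48, and 11 had a larger ratio. Mir322 over Mir503 was one of these, at 43.2, and Mir183 over Mir96 another, at 21.9.

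The ratio of Mir132 to Mir212 differed little between the libraries beside that of other pairs. Its log2 value changed by 0.26 in size, which no scaling affects. The median change was 0.70 over the 78 pairs and 0.66 over the 45 without a shared run, of which 8 changed less. Pairs of 1 cluster share hairpins and are not independent of each other, so these are descriptions.

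**Figure D5:**
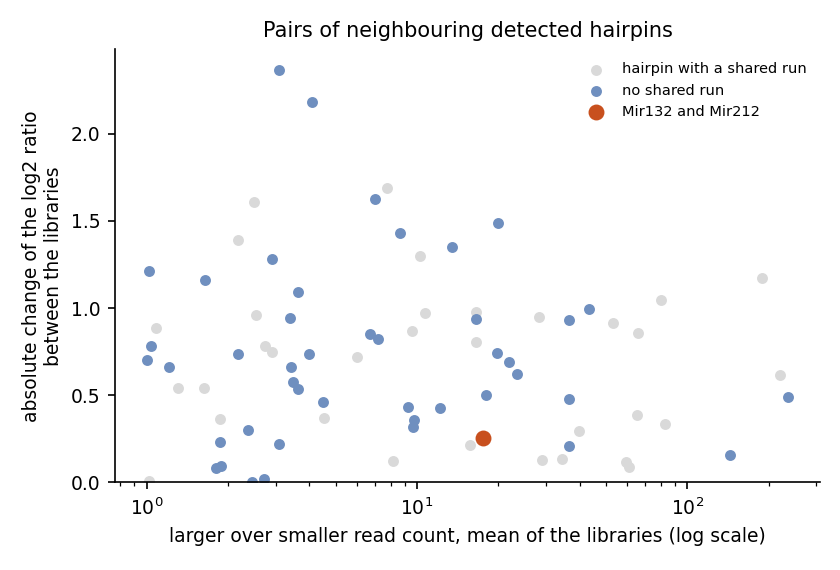
Pairs of neighbouring detected hairpins, with the larger over the smaller read count on a log scale (x axis) and the absolute change of the log2 ratio between the libraries (y axis). Mir132 and Mir212, in orange, have a ratio of 17.6 and a change of 0.26, below the median change of 0.70.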

How the data were processed

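Raw counts of reads by miRNA gene were deposited by the authors as 1 table per library, on mm10 with GENCODE M21 per the file headers. The aligner and counter: not given in the sources used here. A table has 4 leading rows that name no gene and 3 columns of counts, for both strands together, the annotated strand and the opposite one (inferred from the values). The column of the annotated strand was used. The leading rows (57.6% and 60.1% of the reads of replicates 1 and 2) were left out of library sizes. CPM values were computed over 4960537 and 4506482 miRNA reads, and genes with at least 10 reads in both libraries were called detected. TMM factors (1.05 and 0.956) came from edgeR 4.0.16 over all genes. The exact binomial test was tested on simulated data with counting error alone and with scaling by total reads. Those data lack the wider spread of these libraries and the TMM scaling, so they do not show how reliable the calls are here. RNAfold 2.7.2 gave folding energies, and all 4 mature and 2 hairpin sequences matched the RefSeq table and the annotation by symbol and position. Calls are at an adjusted p under 0.05. Scalings by DESeq2 1.42.0 size factors and by total reads, other filters, the other strand column and other denominators were tried.

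Genes named are the pair, the 5 detected genes nearest to each in level, miRNA genes within 500 kb, genes of the same seed and the detected genes of the ACTH and cAMP lists; marker genes and pairs of neighbours were named after their values were seen. The members and lists were chosen with earlier results of these data known. Where 2 samples of 1 group are the only replicates, an SD measures the spread between these samples, which may be technical. A search for cAMP response elements before the locus was planned and not run, since the sequence was not used here. A CAST/EiJ allele that differs from the reference could lower a count in both libraries.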

Additional observations from a re-analysis of the deposited data

How the results depend on the processing

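The Mir132 log2 ratio of 0.11 was -0.021 under total miRNA reads, and fell below the threshold under DESeq2 size factors (0.067, adjusted p = 0.115), under TMM factors from the detected genes (0.030, chosen after seeing the data) and under edgeR's exact test (0.11, adjusted p = 1.0). The remaining 3 alternatives, which changed the strand column or the filter on low counts, kept the call, with adjusted p from 0.00530 to 0.0140. The 7 alternatives for Mir212 kept a negative ratio with no call, with adjusted p from 0.120 to 1.0. The count of genes called was 257, and 7 with edgeR's exact test, where 24 had an unadjusted p under 0.05. The other 6 alternatives gave 233 to 264. The Mir132 level of 607 CPM (SD 6.31) was 682 CPM without Mir126a in the total, with 726 and 638 CPM in replicates 1 and 2. It was 250.0 CPM over all reads of a library (259 and 241 CPM) and 724 CPM with reads on either strand (770 and 678 CPM). The 2 libraries thus lay further apart for Mir132 under each of these denominators, with the higher value in replicate 1. Mir212 was 14.3 CPM over all reads and 41.4 CPM with reads on either strand. The either-strand column has a smaller total in each library (3942397 and 4009427 reads), and the cause was not tested. The ratio of Mir132 to Mir212 was 17.7, and 24.4 per hairpin base. Leaving out each replicate in turn gave 603 to 612 CPM for Mir132, 31.3 to 37.9 CPM for Mir212 and 16.1 to 19.3 for the ratio. The Fisher test gave p = 0.125 with either strand column. Differences between the libraries have no value with 1 library left out. No paired analysis was possible because the series has 1 group. With 188 and 141 reads, the log2 ratio of Mir212 is known only to within its interval of -0.47 to 0.18, which covers counting error alone.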
